A study of Mus musculus with 28 samples.

Results

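The Sox genes encode transcription factors that bind DNA through an HMG box, and the members described here are Sox2 and Sox21 of the SoxB group, Sox9 of SoxE, Sox4 and Sox11 of SoxC, and Sox17, Sox7 and Sox18 of SoxF. They were followed by name over mouse germ layers and over the endoderm of 6 organs. Of the 8 genes, 7 had at least 1 annotated probe on the array, with 12 probes among 25697, and Sox11 had none. Where a gene had several probes, the probe with the highest mean deposited intensity stands for it. The 28 samples, in 9 groups, each gave total RNA for a single bead array (Illumina MouseRef-8 v2). At E8.25, in embryos of 4 to 6 somites, the groups were the 3 germ layers (definitive endoderm, ectoderm, mesoderm), each on 3 arrays. At E11.5 they were the endoderm of esophagus, lung, stomach, liver and intestine, with 3 arrays each, and of pancreas, with 4. Each organ sample was a pool of 10 to 12 embryos whose organ domain was dissected and sorted by flow cytometry for endoderm, so a group's spread is that between pools. The sources used here do not state the strain, the genotype, the sorting marker or how ectoderm and mesoderm were obtained.

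SOX2 is required to keep embryonic cells pluripotent, to build the neural plate and to pattern the foregut, where it is known from the esophagus and stomach side of the gut tube. SOX21 is a SoxB relative best known as a repressor in neural progenitors. SOX9 directs cartilage and testis formation and marks progenitors in pancreas, distal lung buds and intestinal crypts. SOX17 is needed for the definitive endoderm and, with SOX7 and SOX18, for blood vessels, while SOX4 and SOX11 are widespread in progenitors and young neurons.

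Sox2 and Sox21 were both highest in esophagus, followed by stomach, so the start regions of both genes are shown first. Each is a window of 250 bases before to 50 bases after the gene's start, written 5′ to 3′ along the gene, from RefSeq on GRCm38.p6. A RefSeq promoter was at hand for 4 of the 8 genes (Sox2, Sox21, Sox4 and Sox11). Capitals mark matches, on either strand, to a TATA box, a CCAAT box, a GC box and 3 spellings of the core that SOX factors bind. The Sox2 window is chr3:34649745-34650044 on the plus strand, and the Sox21 window is chr14:118236981-118237280 on the minus strand.
Sox2: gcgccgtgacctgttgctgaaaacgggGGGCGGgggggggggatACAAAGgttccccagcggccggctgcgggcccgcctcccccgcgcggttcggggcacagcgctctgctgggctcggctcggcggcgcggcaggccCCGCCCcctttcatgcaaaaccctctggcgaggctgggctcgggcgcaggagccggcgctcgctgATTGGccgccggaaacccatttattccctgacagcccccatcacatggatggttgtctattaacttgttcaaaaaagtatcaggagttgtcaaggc
Sox21: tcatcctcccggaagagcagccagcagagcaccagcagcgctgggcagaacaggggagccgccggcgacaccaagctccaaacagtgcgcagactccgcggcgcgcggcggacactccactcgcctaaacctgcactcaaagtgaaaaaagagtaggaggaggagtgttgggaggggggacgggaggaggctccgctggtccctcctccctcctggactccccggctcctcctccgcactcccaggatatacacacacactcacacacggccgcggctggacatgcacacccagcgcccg
Positions are counted from 1 at the 5′ end. In the Sox2 window the SOX core spelled ACAAAG stood at position 45. The GC box GGGCGG stood there at position 28 and, on the opposite strand, at position 140. The CCAAT box was at position 205 on the opposite strand. The letters searched for were in no place of the Sox21 window, for any of the 6 motifs. Over all 32851 promoter windows of this length, the TATA box TATAAA was in 13.6%, the CCAAT box in 37.4% and the GC box in 35.7%. The SOX core was spelled AACAAT in 10.7% of the windows. The spelling ACAAAG was in 18.7%. The spelling ACAATG was in 12.6%. Both windows were GC-rich, with 66.3% G and C and 27 CpG in Sox2 and 65.7% and 22 CpG in Sox21, against a median GC content of 52.7% over all windows.

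Levels below are log2 of the deposited intensity after background correction and quantile normalization. A value counts as above background on an array when it exceeds the 99th percentile of 1361 sensory receptor probes there, which lay at log2 6.26 to 6.50 on 26 arrays, at 7.48 on pancreas 3 and at 6.73 on intestine 3. Differences are log2 differences ± standard error from limma fitted to 9655 genes, with p-values adjusted by the Benjamini-Hochberg method over the genes of a comparison. A gene is called where the adjusted p is under 0.05 and the change is at least 2-fold, and "at least" sizes are bounds, for which each group on the dimmer side with no array above background was raised to the threshold of its arrays. Against a mean of 5 organs the raising touches only those of the 5 that were below background, and the others enter at their measured values. In bulk RNA, fewer cells that make a transcript and less transcript per cell cannot be told apart. Levels of different probes are not set against each other.

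The organ labels were checked against marker lists. The esophagus list was above background on all esophagus arrays for 6 of 6 genes, the lung list for 5 of 5 in lung, the pancreas list for 6 of 6 in pancreas, the liver list for 5 of 6 in liver, and the definitive endoderm list for 7 of 8 in E8.25 endoderm. The liver list also reached 5 of 6 in intestine, with summed intensities of 17685 to 22816 there against 56639 to 67167 in liver. The definitive endoderm list summed to 20258 to 22702 in pancreas, above the 15116 to 17453 in E8.25 endoderm. The intestine list reached 3 of 5 in intestine, with Cdh17 and Fabp2 below background. The stomach list reached 3 of 5 in stomach, with Gkn1 below background, and its summed intensity of 1193 to 1292 there was under that in liver (1479 to 3247) and in esophagus (1502 to 2075). Mesenchymal markers summed to intensities of 8788 to 10324 in esophagus against 1155 to 3033 in the other organs. The array mesoderm 2 stood apart from its group: markers of neural and surface ectoderm summed to 1667 there, against 994 and 981 on mesoderm 1 and 3, 3143 to 4035 in ectoderm and 3039 to 3799 in endoderm. Deposited intensities stayed under 20000 on 8 arrays, namely all of mesoderm and liver with lung 1 and stomach 1, and went over it on the other 20. This intensity class is used below as a block in an alternative fit and to select arrays. It is a cut on the intensities, and no label names it as a batch. Only lung and stomach hold arrays of both classes.

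Sox2 was highest in esophagus. Its intensity there was 9.68, 10.32 and 9.78, and the values in stomach were 9.92, 7.46 and 7.11. In lung it was 8.19, 6.67 and 6.39. All 9 of these arrays were above background, but stomach 1 and lung 1 lay far above the other arrays of their groups, and stomach 1 fell inside the range of the esophagus.

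Liver (5.90, 5.88 and 5.89), pancreas (5.98, 5.90, 5.76 and 5.75) and intestine (5.85, 5.88 and 6.15) were below background for Sox2 on every array. Among the layers, ectoderm gave 7.12, 7.47 and 7.26, endoderm 6.51, 6.36 and 6.70, and mesoderm 6.69, 7.64 and 6.24. Ectoderm lay above every endoderm array and overlapped mesoderm through mesoderm 2 alone.

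Against E8.25 endoderm, Sox2 rose in esophagus by 3.40 ± 0.49 (adjusted p = 5.73e-06) and in stomach by 1.64 ± 0.49 (adjusted p = 0.0112). The stomach call rests on stomach 1: without it the difference was 0.76 (adjusted p = 0.122), and among the arrays over 20000 alone it was 0.75 (adjusted p = 0.00307), under 2-fold. The lung difference was 0.56 ± 0.49 (adjusted p = 0.432), and 0.00 among the arrays over 20000. Liver, pancreas and intestine were below background, with fitted differences of -0.63, -0.68 and -0.57 that did not pass the test.

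In the order of the group means, esophagus was followed by stomach, ectoderm, lung, mesoderm, endoderm, intestine, liver and pancreas. Of the 8 steps between neighbours, only that from esophagus to stomach passed the call, at 1.77 ± 0.49 (adjusted p = 0.0111). Sox2 did not differ among the 3 layers by the F test of the same fit (adjusted p = 0.459), whereas it did among the 6 organs (adjusted p = 1.59e-07).

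**Figure D1:**
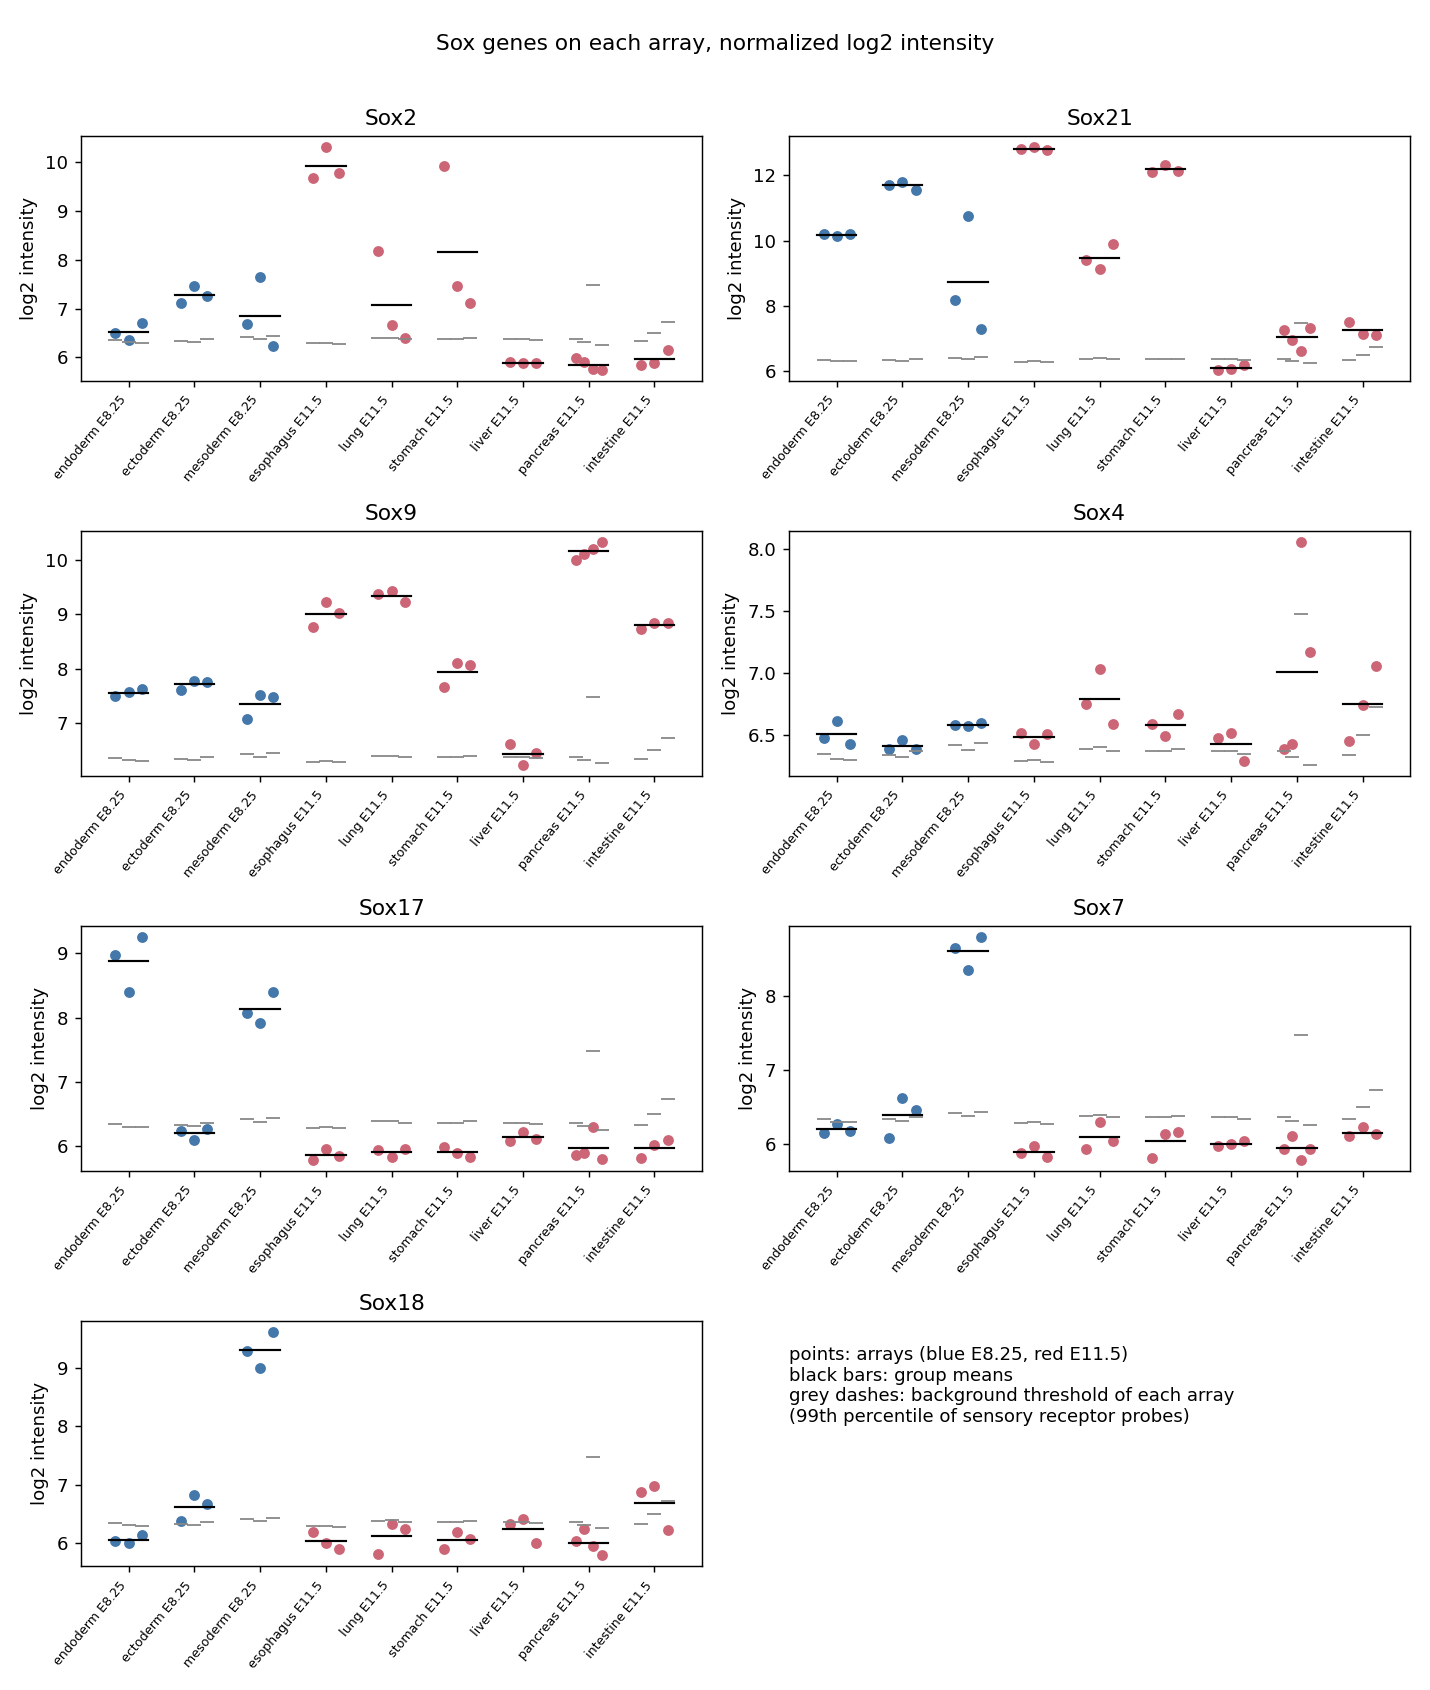
Normalized log2 intensity of the 7 Sox genes with a probe (1 panel a gene, vertical axis) on the 28 arrays by group (horizontal axis), with points for arrays, black bars for group means and grey dashes for the background threshold of each array. Sox2 and Sox21 are highest in esophagus, Sox9 in pancreas, Sox17 is above its threshold in endoderm and mesoderm only, and Sox7 and Sox18 stand out in mesoderm.

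A second Sox2 probe, ILMN_2656102, gave another picture of the middle groups. It read 9.08, 9.14 and 9.96 in esophagus, 8.62, 8.55 and 8.48 in stomach, and 7.15, 7.65 and 7.83 in lung. Here stomach 1 and lung 1 did not stand above their groups. In the layers it read 7.61, 7.30 and 7.76 in endoderm and 8.01, 8.04 and 8.05 in ectoderm, and in mesoderm 6.36, 7.66 and 6.24.

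The probe of the rule, ILMN_1248711, minus this probe was 1.04 on lung 1 and 1.30 on stomach 1, and -0.98, -1.45, -1.09 and -1.37 on the other lung and stomach arrays. Both of these arrays belong to the class with no intensity over 20000. In mesoderm, which lies wholly in that class, the difference was 0.32, -0.01 and -0.01, and in endoderm and ectoderm, which lie wholly in the other class, it was -1.10 to -0.58. Esophagus also lies wholly in the other class, and the difference there was 0.60, 1.18 and -0.18. The sign of the difference thus did not follow the class in all groups. Over the 28 arrays the probes correlated at r = 0.85, against 0.99 for the 2 Sox17 probes and 0.98 for the 2 Sox7 probes, as a description of arrays that share groups and signal scale.

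By the second probe the rise from E8.25 endoderm was 1.84 ± 0.26 in esophagus (adjusted p = 4.30e-06), and the stomach difference of 1.00 ± 0.26 (adjusted p = 0.00398) lay just short of 2-fold. The falls in liver (-1.43 ± 0.26), pancreas (-1.48 ± 0.24) and intestine (-1.54 ± 0.26) were called, with adjusted p = 6.00e-05, 2.82e-05 and 5.67e-05. The step from esophagus to stomach, called by the probe of the rule, was 0.84 ± 0.26 (adjusted p = 0.0224) and not called, and no other step between neighbours was. Ectoderm exceeded mesoderm by 1.28 ± 0.26 (adjusted p = 0.000691), a call that the probe of the rule did not make (0.42 ± 0.49, adjusted p = 0.579). Esophagus stood highest by both probes, and liver, pancreas and intestine were below background by both.

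**Figure D2:**
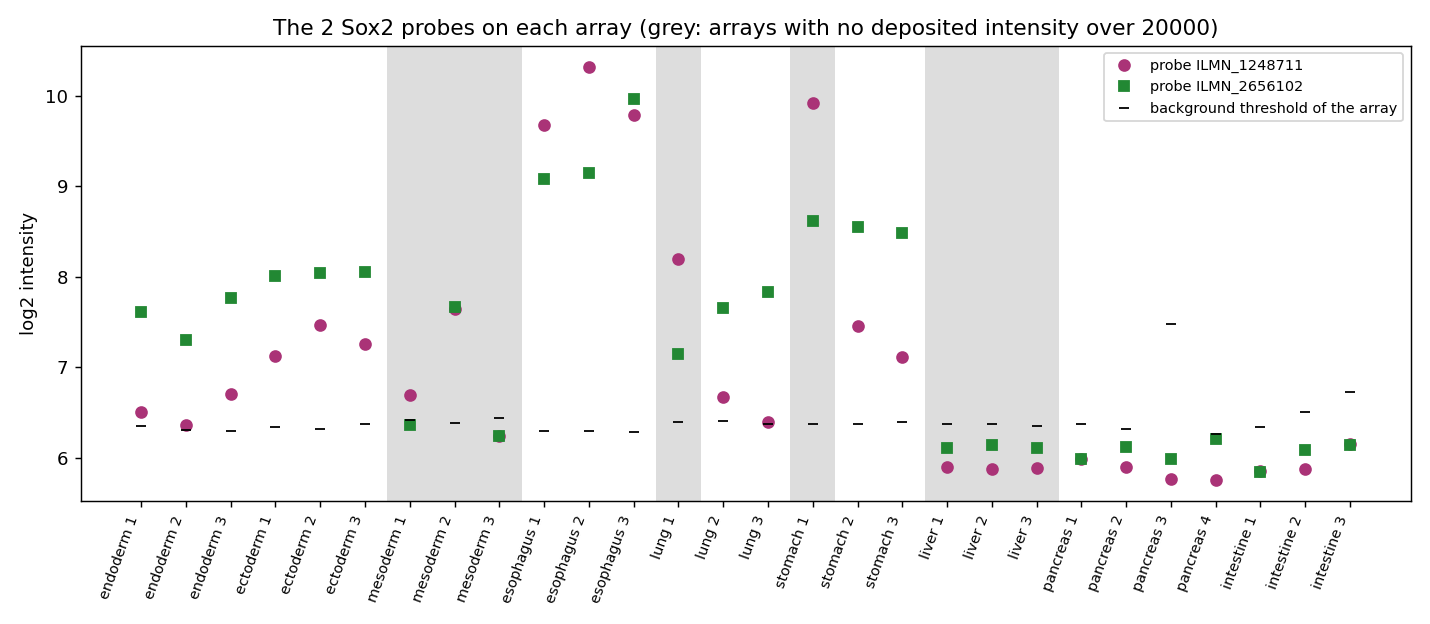
Log2 intensity (vertical axis) of both Sox2 probes on each of the 28 arrays (horizontal axis), with dashes for the background threshold of each array and grey bands for the 8 arrays with no deposited intensity over 20000. On lung 1 and stomach 1 the circles (ILMN_1248711) lie above the squares (ILMN_2656102), and on lung 2 and 3 and stomach 2 and 3 below them.

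Sox21 had the widest span of group means of the members, from 12.81 in esophagus to 6.10 in liver. It read 12.80, 12.87 and 12.76 in esophagus and 12.10, 12.32 and 12.13 in stomach, with no overlap between these groups and any other. Lung followed at 9.40, 9.13 and 9.88. Lung thus lay far below its foregut neighbours and far above liver, pancreas and intestine.

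Pancreas read 7.26, 6.95, 6.62 and 7.32, intestine 7.52, 7.14 and 7.10, and liver 6.05, 6.08 and 6.19, the last below background on all arrays. Pancreas and intestine overlapped and liver lay below both. In the layers Sox21 was 11.71, 11.79 and 11.56 in ectoderm, 10.20, 10.14 and 10.19 in endoderm, and 8.17, 10.75 and 7.30 in mesoderm. Mesoderm 2, the array with the most ectoderm marker signal of its group, was its highest and lay above endoderm, and the part of those markers in its level was not tested.

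Esophagus exceeded lung by 3.34 ± 0.46 (adjusted p = 6.32e-06), and lung minus stomach was -2.71 ± 0.46 (adjusted p = 0.000167). Lung exceeded intestine by 2.22 ± 0.46 (adjusted p = 0.00106) and pancreas by 2.43 ± 0.43 (adjusted p = 0.000126). Esophagus and stomach differed by 0.63 ± 0.46 and did not pass the test (adjusted p = 0.392), although their arrays did not overlap. The standard error pools the spread of all groups, with a standard deviation of 0.05 in esophagus, 0.12 in stomach and 1.79 in mesoderm. By the other 2 Sox21 probes, ILMN_3163306 and ILMN_2721489, the difference was 0.67 ± 0.14 and 0.97 ± 0.26 (adjusted p = 0.000959 and 0.00849), both under 2-fold. Esophagus exceeded liver at least 87.2-fold and stomach exceeded liver at least 56.5-fold. Of all genes tested, 6.1% were called between esophagus and lung, 3.52% between lung and stomach, 5.78% between lung and intestine and 7.04% between lung and pancreas. The share was 5.76% between esophagus and stomach, 17.6% between esophagus and liver and 15.1% between stomach and liver.

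From E8.25 endoderm, Sox21 rose in esophagus (2.63 ± 0.46, adjusted p = 7.36e-05) and stomach (2.00 ± 0.46, adjusted p = 0.0015). It fell in pancreas (-3.14 ± 0.43, adjusted p = 2.90e-06) and intestine (-2.92 ± 0.46, adjusted p = 2.60e-05), and in liver at least 14.1-fold (adjusted p = 9.30e-08). Lung, at -0.71 ± 0.46 (adjusted p = 0.27), was not called.

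Among the layers, ectoderm stood above endoderm by 1.51 on the log2 scale (endoderm minus ectoderm -1.51 ± 0.46, adjusted p = 0.0375). The difference kept its size without any single array of these groups, from -1.57 to -1.46, but its adjusted p was then 0.081 to 0.115; it was 1.10e-05 without mesoderm 2. Endoderm exceeded mesoderm by 1.44 ± 0.46 (adjusted p = 0.0187), and by 2.44 without mesoderm 2 (adjusted p = 1.89e-08). It was 1.15 without mesoderm 1 (adjusted p = 0.0985), 0.72 without mesoderm 3 (adjusted p = 0.195), and 1.32 (adjusted p = 0.164) when the intensity class entered the model. Endoderm and mesoderm each lie in a single class, so the last value cannot separate the class from the layer. Ectoderm exceeded mesoderm by 2.95 ± 0.46 (adjusted p = 3.92e-05).

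In the order of means, esophagus, stomach, ectoderm, endoderm, lung, mesoderm, intestine, pancreas and liver, the steps from ectoderm to endoderm and from mesoderm to intestine (1.49 ± 0.46, adjusted p = 0.0123, beside 14% of all genes called between those groups) passed the call. The other 2 Sox21 probes were dim. ILMN_3163306 was above background on 16 arrays and ILMN_2721489 on 8. The former called esophagus above endoderm by 2.25 ± 0.14 and stomach by 1.58 ± 0.14, with adjusted p = 6.87e-12 and 5.35e-09, and left endoderm minus ectoderm under 2-fold at -0.88 ± 0.14. It also left the falls from endoderm under 2-fold, at -0.72 in liver, -0.54 in pancreas and -0.74 in intestine, where it was below background on all arrays. The latter read 7.73 on stomach 1 against 6.15 and 6.17 on stomach 2 and 3, where ILMN_3163306 read 8.13, 8.51 and 8.20, so the split of stomach 1 from its group was seen with 1 Sox21 probe and not with the other.

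Sox9 was highest in pancreas. It read 9.99, 10.11, 10.20 and 10.33 there, 9.37, 9.42 and 9.22 in lung, and 8.76, 9.22 and 9.03 in esophagus. Pancreas lay above every other array, and lung touched the range of esophagus. Intestine read 8.72, 8.84 and 8.84, stomach 7.66, 8.10 and 8.06, and liver 6.61, 6.23 and 6.44.

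The layers lay close together for Sox9, at 7.49, 7.57 and 7.62 in endoderm, 7.61, 7.78 and 7.75 in ectoderm, and 7.08, 7.52 and 7.47 in mesoderm. They did not pass the F test (adjusted p = 0.117), whereas the organs did (adjusted p = 6.88e-16). Sox9 was above background on 27 arrays, the exception being in liver.

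Against E8.25 endoderm, Sox9 rose in pancreas by 2.60 ± 0.13 (adjusted p = 9.27e-14), in lung by 1.78 ± 0.14 (adjusted p = 6.13e-10), in esophagus by 1.45 ± 0.14 (adjusted p = 1.31e-08) and in intestine by 1.24 ± 0.14 (adjusted p = 1.87e-07). The part of the mesenchymal signal of esophagus in its Sox9 level was not tested. The stomach difference of 0.38 ± 0.14 (adjusted p = 0.0337) was under 2-fold. In liver Sox9 fell by 1.13 on the log2 scale (adjusted p = 2.91e-07). With the intensity class in the model the liver difference was -0.94 (adjusted p = 0.000417), under 2-fold. Liver and endoderm each lie in a single class, so the class was estimated from lung and stomach only. This fit therefore cannot separate the class from the tissue.

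Among organs, pancreas exceeded intestine by 1.36 ± 0.13 (adjusted p = 1.28e-08), and esophagus lay below pancreas, at -1.15 ± 0.13 (adjusted p = 1.39e-07), beside 6.6% and 10.2% of all genes called in these pairs. Pancreas and lung differed by 0.82 ± 0.13 (adjusted p = 2.85e-05), under 2-fold. Against the mean of the other 5 organs Sox9 was 0.87 ± 0.11 higher in lung (adjusted p = 1.07e-06), also under 2-fold, so no Sox gene was called for lung there. No step between neighbours in the order pancreas, lung, esophagus, intestine, stomach, ectoderm, endoderm, mesoderm and liver reached 2-fold.

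Epithelial markers, such as Epcam and keratins, were low in liver, as were Sox9, Sox2 and Sox21. Their 9 genes summed to intensities of 4396 to 5391 in liver against 11618 to 22509 in the other organs, 4 of 9 being above background on all liver arrays. In pancreas and intestine, where Sox2 was also below background and Sox21 also low, they summed to 12462 to 14670 and to 14864 to 17401. Leukocyte markers summed to 2543 to 2946 in liver against 358 to 651 elsewhere among the organs. The part of either list in the low Sox levels of liver was not tested.

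**Figure D3:**
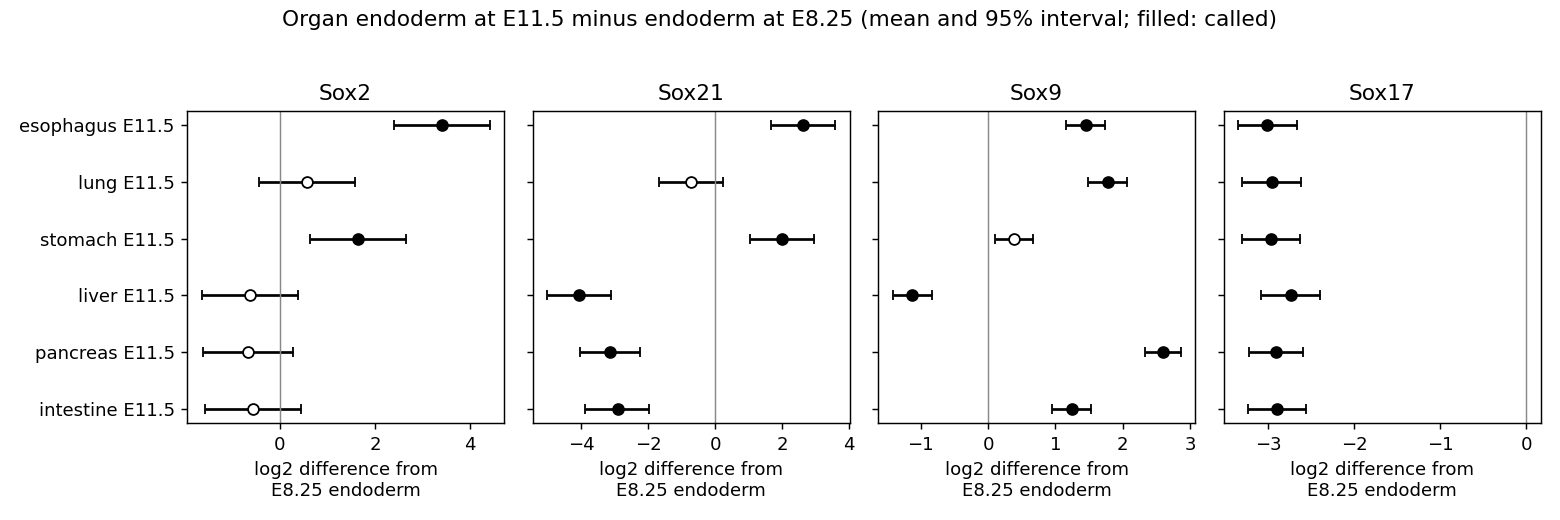
Log2 difference of each organ at E11.5 from endoderm at E8.25 (horizontal axes, which differ in range) for Sox2, Sox21, Sox9 and Sox17, with points for fitted differences (filled where called) and bars for their 95% intervals. Sox17 is lower in all 6 organs, Sox21 and Sox2 are higher in esophagus and stomach, and Sox9 is lower in liver alone.

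Sox4 was dim in all groups and was not called in any of the 15 comparisons. Its group means ran from 6.41 in ectoderm to 7.01 in pancreas. Pancreas read 6.39, 6.43, 8.06 and 7.17 and overlapped endoderm (6.48, 6.61 and 6.43), so its difference of 0.50 ± 0.24 did not pass (adjusted p = 0.104). The highest array, pancreas 3, had a raised background threshold of 7.48. Neither the layers (adjusted p = 0.885) nor the organs (adjusted p = 0.242) passed the F test for Sox4.

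Sox17 was above background in the early endoderm and mesoderm. It read 8.98, 8.40 and 9.25 in endoderm and 8.08, 7.91 and 8.40 in mesoderm. Ectoderm, at 6.24, 6.10 and 6.27, was below background on all arrays, as were all 19 organ arrays, at 5.79 to 6.31. Endoderm and mesoderm met at 8.40 and both stood clear of every other array.

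Endoderm exceeded ectoderm at least 5.79-fold (adjusted p = 9.22e-11) and mesoderm exceeded ectoderm at least 3.45-fold (adjusted p = 5.10e-09). Endoderm exceeded mesoderm by 0.75 ± 0.16 (adjusted p = 0.00105), under 2-fold. From E8.25 endoderm Sox17 fell in each of the 6 organs, by bounds of at least 4.82-fold in pancreas to at least 6.01-fold in esophagus, with adjusted p from 2.13e-13 to 1.43e-12. The second Sox17 probe gave the same calls in these comparisons, at least 3.47-fold in pancreas to at least 4.32-fold in esophagus.

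Sox7 was found in mesoderm. It read 8.66, 8.36 and 8.80 there, against 6.15, 6.28 and 6.18 in endoderm and 6.09, 6.63 and 6.46 in ectoderm. In the organs it lay between 5.79 and 6.30, below background on all arrays. Mesoderm exceeded endoderm at least 4.86-fold (adjusted p = 2.22e-12), and ectoderm lay below mesoderm at -2.21 ± 0.13 (adjusted p = 2.07e-11). The second Sox7 probe made both calls too, at least 2.18-fold and at least 2.15-fold.

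Sox18 followed the same layer. Mesoderm read 9.29, 8.99 and 9.60, ectoderm 6.38, 6.82 and 6.68, and endoderm 6.04, 6.00 and 6.15, the last below background. Mesoderm exceeded endoderm at least 7.84-fold (adjusted p = 3.53e-12), and ectoderm lay below mesoderm at -2.66 ± 0.19 (adjusted p = 2.13e-10). Ectoderm and endoderm did not overlap but were not called apart (-0.56 ± 0.19, adjusted p = 0.0575).

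Among the organs Sox18 was above background on intestine 1 and 2, at 6.88 and 6.98, and not on intestine 3, at 6.23. The other organs lay at 5.80 to 6.42, with 1 liver array above background. The organs passed the F test (adjusted p = 0.0171), yet intestine differed from the other organs by 0.60 ± 0.14 (adjusted p = 0.00338) and from endoderm by 0.63 ± 0.19 (adjusted p = 0.0111), both under 2-fold. Endothelial markers summed to 2787 and 3111 on intestine 1 and 2 and to 1557 on intestine 3, and were thus lowest on the array where Sox18 was lowest. In stomach they summed to 3367 to 3843, more than on any intestine array, with Sox18 below background on all 3 arrays (5.90 to 6.19), and on liver 1 to 4080, with Sox18 below background too. Of the 13 marker genes, 3 were above background on each stomach array, 5 on intestine 1 and 2, 3 on intestine 3 and 9 on liver 1. The stomach sum thus came from few of the genes. The part of vessel cells in the Sox18 level of the organs was not tested.

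Among the layers, endothelial markers were highest in mesoderm, as were Sox7 and Sox18 but not Sox17. Their 13 genes summed to 11651 to 16692 in mesoderm, with 11 of 13 above background on all arrays and Kdr below it, against 2691 to 3215 in endoderm and 3075 to 3326 in ectoderm. In endoderm, where Sox17 was at its highest, 5 of the 13 genes were above background on all arrays. Pecam1, Cdh5, Kdr, Tie1, Emcn and Eng were below background on every endoderm array. Erythroid markers summed to 4237 to 24278 in mesoderm against 572 to 594 in endoderm. The part of vessel and blood cells in the mesoderm levels of Sox7, Sox18 and Sox17 was not tested. Without mesoderm 2, endoderm minus mesoderm was -2.52 for Sox7 and -3.38 for Sox18 (adjusted p = 6.23e-12 and 1.42e-11).

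**Figure D4:**
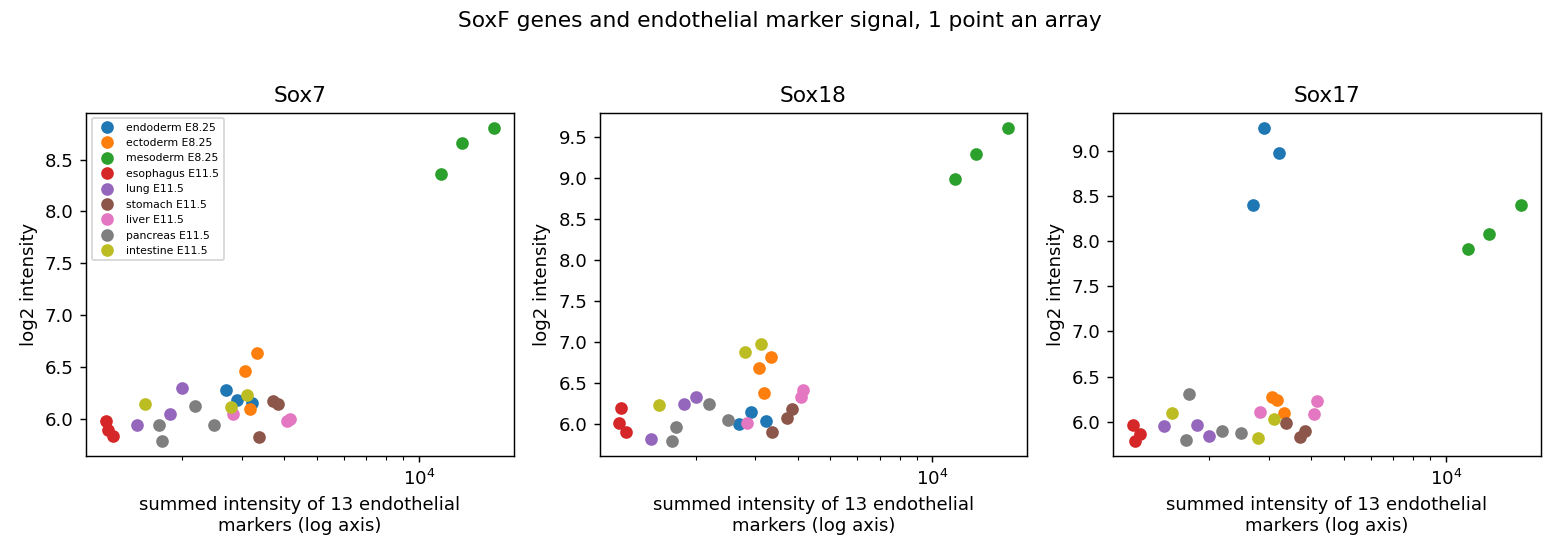
Log2 intensity of Sox7, Sox18 and Sox17 (vertical axes) against the summed intensity of 13 endothelial markers (horizontal axes, log scale), 1 point an array, coloured by group. The 3 mesoderm arrays lie at 11651 to 16692 with all 3 genes high, and the endoderm arrays hold high Sox17 at 2691 to 3215.

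Counted by comparison, endoderm and ectoderm differed in 2 of the 7 Sox genes (Sox17 higher and Sox21 lower in endoderm), beside 2.84% of all genes tested. Endoderm and mesoderm differed in 3 (Sox21 higher, Sox7 and Sox18 lower in endoderm), beside 8.66%. Ectoderm and mesoderm differed in 4 (Sox21 higher, Sox17, Sox7 and Sox18 lower in ectoderm), beside 5.57%. By the F test, 4 of 7 passed among the layers (Sox21, Sox17, Sox7 and Sox18), beside 37.3% of genes, and 4 of 7 among the organs (Sox2, Sox21, Sox9 and Sox18), beside 64.9%, a share near that of the members.

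Set against the mean of the other 5 organs, esophagus had Sox2 higher by 3.34 ± 0.38 (adjusted p = 1.65e-07) and Sox21 by 4.40 ± 0.36 (adjusted p = 6.22e-10), 2 of 7 genes beside 6.48% of all. The bounds were at least 7.89-fold, with liver, pancreas and intestine raised for Sox2, and at least 20.4-fold, with liver raised for Sox21. Stomach had the same 2 genes higher, beside 2.71%, Sox21 by 3.65 ± 0.36 (at least 12.1-fold) and Sox2 by 1.22 ± 0.38 (at least 1.82-fold), with adjusted p = 5.64e-08 and 0.0255. By the Sox2 probe of the rule the stomach call rests on stomach 1, without which the difference was 0.34 (adjusted p = 0.489). By the second Sox2 probe, where stomach 1 did not stand apart, stomach was higher by 1.52 ± 0.20 (adjusted p = 4.53e-06), at least 2.4-fold. Lung had 0 of 7 called, beside 3.79%.

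Liver had Sox2, Sox21 and Sox9 lower, 3 of 7 beside 13.5%, with Sox9 at -2.62 ± 0.11 (adjusted p = 6.25e-16). Pancreas had Sox9 higher by 1.85 ± 0.10 (adjusted p = 1.52e-13) and Sox2 and Sox21 lower, 3 of 7 beside 4.81%. Intestine had Sox2 and Sox21 lower, 2 of 7 beside 3.83%. A mean over 5 organs that includes esophagus and stomach is high for Sox2 and Sox21, so a gene called lower against it need not be the lowest. The comparisons share arrays and are not independent of each other.

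Against E8.25 endoderm, 3 of 7 were higher in esophagus (Sox2, Sox21 and Sox9) and 1 lower (Sox17), beside 6.08% of all genes higher and 5.09% lower. In stomach 2 were higher (Sox2 and Sox21) and 1 lower (Sox17), beside 4.9% and 4.37%. The Sox2 call in stomach rests on stomach 1, and the second Sox2 probe did not make it (1.00 ± 0.26). In lung 1 was higher (Sox9) and 1 lower (Sox17), beside 4.02% and 4.24%. Pancreas and intestine each had 1 higher (Sox9) and 2 lower (Sox21 and Sox17), beside 5.47% higher and 5.1% lower in pancreas and 4.9% and 3.64% in intestine. In liver 0 were higher, beside 9.23%, and 3 lower (Sox21, Sox9 and Sox17), beside 9.4%. The counts use the probe of the rule, and the second Sox2 probe also called Sox2 lower in liver, pancreas and intestine. These 6 comparisons share the endoderm arrays.

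Over the 9 group means, Sox2 and Sox21 correlated at r = 0.87 and Sox7 and Sox18 at r = 0.98, while Sox17 correlated with Sox7 at 0.57 and with Sox18 at 0.47. Sox9 and Sox4 reached 0.82, with Sox4 spanning little. Group means share arrays and scale, so these values describe the profiles only.

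Of 10 other Sox genes on the array, 4 were tested. Sox5, a SoxD gene that works beside SOX9 in cartilage, was called, and Sox8, Sox12 and Sox13 were not in any of the 15 comparisons. Sox5 read 9.60 to 9.88 in esophagus and 9.50 to 9.72 in stomach against 8.08 to 8.20 in endoderm, with no overlap. It rose from E8.25 endoderm by 1.58 ± 0.17 in esophagus, 1.45 ± 0.17 in stomach, 1.07 ± 0.17 in liver and 1.06 ± 0.16 in pancreas (adjusted p = 1.31e-07, 6.72e-07, 1.68e-05 and 1.40e-05). Of all genes tested, 6.08%, 4.9%, 9.23% and 5.47% were called higher in these comparisons. Sox3, Sox6, Sox15, Sox30 and Sry were above background on 0 arrays and Sox1 on 1.

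Genes known as partners or targets of SOX2 were tested for 7 of the 11 on the array. Against E8.25 endoderm in esophagus, 1 rose and 4 fell, beside 6.08% and 5.09% of all genes, with a median of -1.40 against -0.03 over all genes. Trp63, the keeper of stratified epithelia, rose by 4.39 ± 0.29 (adjusted p = 1.73e-11), whereas the pluripotency genes Sall4 and Pou5f1 fell, Sall4 by 5.20 on the log2 scale (adjusted p = 7.30e-15) and Pou5f1 at least 1.97-fold (adjusted p = 0.000288). In stomach 0 rose and 4 fell (Pou5f1, Pou3f1, Nanog and Sall4), beside 4.9% and 4.37% of all genes, with a median of -1.39 against -0.02. Liver, which lacked Sox2 signal, had 5 of 7 lower than endoderm, beside 9.4% of all genes, with a median of -1.37 against -0.10, and Sall4 at -1.39 ± 0.21 (adjusted p = 4.50e-06).

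Between the organs, esophagus had 1 of the 7 SOX2 partners and targets higher than the mean of the others and 1 lower. This stood beside 6.48% of all genes called, with a median of 0.08 against -0.02. Trp63 was at least 39.3-fold higher (adjusted p = 4.05e-15) and Sall4 was lower, at -3.42 ± 0.16 (adjusted p = 3e-14). Stomach had 0 of 7 called against the other organs, beside 2.71%. In the layers, ectoderm exceeded mesoderm in 3 of these 7 genes, Pou3f1 by 1.85 ± 0.27, Pou5f1 by 1.41 ± 0.28 and Nanog at least 1.72-fold (adjusted p = 1.72e-05, 0.000681 and 0.00599), with a median of 0.98 against 0.06 and 5.57% of all genes called. Endoderm minus ectoderm had 1 higher, Trp63 at 1.76 ± 0.29 (adjusted p = 0.000133), and 2 lower, Pou3f1 at -1.24 ± 0.27 and the Notch target Hes5 at -1.06 ± 0.28 (adjusted p = 0.00296 and 0.0141), with a median of -0.62 against -0.02 and 2.84% of all genes called.

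Known SOX9 targets were tested for 6 of 13. Pancreas had 3 higher and 0 lower than the other organs, beside 4.81% of all genes called, with a median of 0.75 against -0.05: Etv4, an FGF-responsive factor, by 1.89 ± 0.24, the cartilage collagen Col9a2 by 1.40 ± 0.10, and the cartilage collagen Col2a1 at least 2.59-fold (adjusted p = 9.47e-07, 8.62e-11 and 1.02e-07). Lung had Etv5 higher by 2.76 ± 0.16 (adjusted p = 2.76e-12) and Col2a1 at least 3.53-fold (adjusted p = 1.23e-08), 2 of 6 beside 3.79% of all genes, with a median of 0.34 against 0.00. Liver, lowest for Sox9, had 0 higher and 3 lower (Col2a1, Fgfr2 and Etv4), beside 13.5% of all genes called, with a median of -0.84 against -0.06. Intestine had 1 higher and 1 lower than the other organs, beside 3.83%, with a median of -0.10 against -0.01. Hapln1 was at least 1.57-fold higher and Col2a1 was at -1.76 ± 0.17 (adjusted p = 6.75e-06 and 2.84e-08). Against E8.25 endoderm, intestine had 0 higher and 1 lower, Col2a1 at -1.18 ± 0.22 (adjusted p = 0.00021), beside 4.9% and 3.64%. Against endoderm too, pancreas had 3 higher and 1 lower, lung 3 and 1, and esophagus 2 and 3, with Hapln1 lower in each. Sox9 rose from endoderm in all of these organs. Esophagus had 1 higher and 2 lower than the other organs, beside 6.48% of all genes, with a median of -0.23 against -0.02. Col2a1 was higher by 2.27 ± 0.17 (at least 4.71-fold, adjusted p = 1.81e-10), and Etv5 at -1.77 ± 0.16 and Etv4 at -1.51 ± 0.26 were lower (adjusted p = 2.67e-09 and 7.91e-05). The part of the mesenchymal signal of esophagus in the Col2a1 level was not tested.

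Known partners and targets of the SoxF factors were tested for 13 of 15. Endoderm exceeded ectoderm in 2, the pioneer factor Foxa1 by 2.44 ± 0.39 (adjusted p = 9.47e-05) and Gata6 by 1.33 ± 0.15 (adjusted p = 7.06e-07), with a median of 0.05 against -0.02 and 2.84% of all genes called. Endoderm minus mesoderm had 2 higher and 4 lower, beside 8.66% of all genes called, with a median of -0.42 against 0.05. Foxa1 was at least 11.2-fold higher in endoderm (adjusted p = 5.27e-08), whereas Gata6 (-2.15 ± 0.15), the vascular adhesion gene Vcam1 (at least 3.34-fold) and the receptor Notch1 (-1.82 ± 0.28) were higher in mesoderm, with adjusted p = 6.14e-11, 3.24e-08 and 1.99e-05. Ectoderm minus mesoderm had 1 higher and 5 lower, beside 5.57%, with a median of -0.42 against 0.06. Liver, where Sox17 was below background, had 3 higher than E8.25 endoderm and 3 lower (Lama1, Efnb2 and Cxcr4), beside 9.23% and 9.4% of all genes, with a median of 0.00 against -0.10. Vcam1 was at least 31.7-fold higher, Hnf4a higher by 4.25 ± 0.25 and Gata6 by 1.89 ± 0.15, and the chemokine receptor Cxcr4 at least 3.5-fold lower (adjusted p = 5.65e-16, 1.16e-12, 1.67e-10 and 8.40e-11).

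Genes linked to SOX4 and SOX11 in neurons and endocrine cells were tested for 8 of 10. Pancreas had 3 higher and 1 lower than the other organs, beside 4.81% of all genes called, with a median of 0.65 against -0.05. The endocrine factor Neurog3 was at least 8.44-fold higher (adjusted p = 1.84e-14), Isl1 was higher by 3.18 ± 0.15 (adjusted p = 4.84e-14) and the microtubule gene Map2 by 1.46 ± 0.10 (adjusted p = 5.20e-11), while Stmn1 was lower, at -1.06 ± 0.36 (adjusted p = 0.0278). Lung, stomach and intestine had 0 of 8 called by limma against the other organs, beside 3.79%, 2.71% and 3.83% of all genes. Liver had 3 lower (Tead2, Map2 and Isl1), beside 13.5%. Esophagus had 1 higher, Stmn1 at 1.47 ± 0.40 (adjusted p = 0.00606), beside 6.48%.

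For each member, the 3 genes with the most similar group means were taken from 4457 tested genes whose means spanned at least 1 log2 unit, over 9 groups. Sox2 was nearest to Lrig1, a brake on growth factor receptors (r = 0.967), Vit (0.955) and Fbxo15 (0.952), all highest in esophagus, and by its second probe also to Lrig1 (0.955). Sox21 was nearest to Lrig1 (0.917), Spred1 (0.896) and Cuedc1 (0.891). Sox9 was nearest to Aatk (0.936), Tmem131l (0.923) and Nrep (0.912), and Sox4 to Rem2 (0.917), Trp53inp2 (0.915) and Ak1 (0.900). The Sox4 means ran only from 6.41 to 7.01, and Sox4 passed neither F test (adjusted p = 0.885 and 0.242). No pattern of Sox4 can therefore be read from its nearest genes.

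Sox17 was nearest to Atf3 (r = 0.972), the cardiac factor Nkx2-5 (0.968) and Polg (0.924). Sox7 was nearest to genes of heart muscle, Unc45b (0.996), Ankrd1 (0.996) and Myl7 (0.994), and Sox18 to Mybpc3 (0.995), Gja5 (0.989) and Tmod1 (0.982). Each of the last 6 was highest in mesoderm, Myl7 at a mean of 10.68 there. These genes share their mesoderm arrays with Sox7 and Sox18, and the part of heart cells in the mesoderm samples was not tested.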

How the data were processed

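Intensities per probe on a linear scale are used as deposited. BeadStudio is named, with no version, per the submitters' processing notes. The sources used here give no normalization, background subtraction, filter or genome build. Median deposited intensity per array was 10.7 to 43.8, and 7 arrays hold values below 0. A further deposited table of 112 columns carries array identifiers that no label gives and was not used here. Groups came from the sample titles. Each of 23978 probes had 1 gene symbol and 1719 had none.

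In R 4.3.3 with limma 3.58.1 (statmod 1.5.0), deposited intensities were corrected by normexp without controls (offset 50), quantile normalized over 28 arrays and taken to log2. Each of 16593 symbols was represented by its probe of highest mean intensity, and 9655 genes above background on every array of at least 1 group were tested, all 7 Sox genes with a probe among them. The model had 9 group means and no covariates, with 15 comparisons, 36 pairs of groups and F tests, and was tested on simulated data. The replicate number was tried as a block, because arrays of the same number deviated together in endoderm with ectoderm (r = 0.339 to 0.418) and in ectoderm with mesoderm (0.315 to 0.413), although no label says that numbers pair samples. No pair of arrays held identical values. Within groups r was 0.945 to 0.995 across genes. The number of arrays limits the precision, and p-values measure the spread between these pools. Motifs were searched with Python 3.11.15.

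The Sox genes, the marker and target lists and the tests were chosen with earlier results of these data known. Genes named are the members, the other Sox genes, of each list at most 4 members called in the comparison described, those of the largest size, and the 3 nearest patterns; marker genes, and list members named only in a count, stand outside this rule. Alternatives changed the background correction, offset, scaling, filter, probe choice, weights, block and arrays. Chosen after seeing the data were the probe with the highest mean log2, the arrays over 20000 alone, and leaving out mesoderm 2.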

Additional observations from a re-analysis of the deposited data

How the results depend on the processing

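Under 14 other settings and with each of the 28 arrays left out in turn, 105 gene results (7 genes in 15 comparisons) were recomputed. Of the 4310 values this gave, 26 were no longer called, 16 became called and 1 turned its direction. The reversal was Sox2, endoderm minus mesoderm, at 1.82 with the intensity class as a block (main value -0.33), where the class could be estimated from lung and stomach only and mesoderm lies in a single class. The count of Sox genes called between endoderm and ectoderm went from 2 to 1 with an offset of 16, without a filter on dim genes and with the mean of all probes, and lay at 1 without any single endoderm or ectoderm array (counts of 1 to 2 over all arrays left out). For lung against the other organs it went from 0 to 1 without background correction and with an offset of 16, through Sox9 at 1.10 and 1.03. For stomach against the other organs it went from 2 to 1 with array weights and without stomach replicate 1 (1 to 2 over all arrays left out), and for intestine from 2 to 1 with the intensity class as a block, through Sox2 at -0.71. With that block Sox2 in pancreas was -0.84. The cause was not tested in any of these. The replicate number as a block changed no call of a Sox gene: the count stayed at 2, 3 and 4 in the 3 layer comparisons, with Sox21, endoderm minus ectoderm, at an adjusted p of 0.0404. Sox18 in intestine passed 2-fold against the other organs at 1.13 without background correction and 1.01 with an offset of 16. Over all genes tested, the calls rose by 1.55 to 1.97 times without background correction in all 15 comparisons, such as from 274 to 523 between endoderm and ectoderm, and by up to 1.62 times in 9 with an offset of 16, such as from 274 to 444. Weak signals limit the sizes: where a group is below background only a bound can be given, and Sox4 lies close to background throughout.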

Other observations

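Mesoderm 2 carried ectoderm genes at a higher level than its group. Otx2, a factor of the anterior neural plate, read 8.47 there against 7.43 and 7.57 on mesoderm 1 and 3. Zic1 read 7.98 against 6.21 and 6.38, and Hes5 7.96 against 6.65 and 6.23. On the same array Sox21 read 10.75 and Sox2 7.64, both the highest of their group.

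Sox13 and Sox12, which were not called in any of the 15 comparisons, still varied. Sox13 had group means from 6.84 in esophagus to 8.40 in ectoderm, and Sox12 from 7.04 in pancreas to 8.18 in lung.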
